A study of Gallus gallus with 65 samples.

Results

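The zinc finger genes carried on the array under ZNF or ZFP names were picked out by their spot names, leaving out the 2 names that start with ZNFN1A. This family was chosen with earlier results of these data known. Its genes made up 165 of the 1507 gene probes, 152 under ZNF and 13 under ZFP names. The samples were sensory epithelia of the utricle, which senses balance, from White Leghorn chicks 10 to 21 days after hatching. Per the study's methods, cultured utricles received 1 mM neomycin, an antibiotic that kills hair cells, for 24 hr and were taken at once (0 hr) or after 24 or 48 hr of recovery without the drug. Each biological sample pooled 4 treated epithelia and 4 time-matched control epithelia that went through the same culture without neomycin. The comparison asks which genes differ between treated and control epithelia during the loss and replacement of hair cells, and all values are log2 ratios of neomycin over control on 65 two-colour arrays, in 3 biological replicates at each of the 3 time points.

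Most proteins under these names carry tandem C2H2 zinc fingers, short folds held by a zinc ion that read DNA sequence. Many of them add a domain that sets what happens at the bound site: a KRAB domain recruits the corepressor TRIM28 and silencing chromatin, a SCAN domain joins zinc finger proteins into pairs, and a BTB domain forms dimers and can recruit histone deacetylases. The KRAB family expanded greatly in mammals, and many of its human members have no direct counterpart in birds. Supporting cells of the avian utricle divide after hair cell loss and produce new hair cells, which is why transcription regulators were surveyed in this tissue.

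The names were an imperfect guide to the family. By lists of gene names for each domain, 75 of the 165 probes were matched to KRAB genes, 16 to SCAN genes (some of them also KRAB), 9 to BTB genes and 5 to MYM-type genes. A further 15 were listed as other C2H2 factors, 15 as zinc-binding proteins that are not C2H2 factors, and 36 were on no list. The list of other C2H2 factors wrongly held ZNF259, which is not one. The lists were matched by spot name, so they missed some old names. Among the 36 are ZNF-kaiso, the BTB protein ZBTB33, and the KRAB genes ZNF361, ZFP95 and ZNF36, so each domain group may lack further members. The 15 listed as not C2H2 factors included ZNF162, the splicing factor SF1, ZNF9, the nucleic acid binding protein CNBP, ZNF294, the ubiquitin ligase listerin, and ZFP36, which directs mRNA decay. The probes were designed on human sequence and hybridised with chicken cDNA. For 24 of the 165 the RefSeq annotation of the chicken genome (GRCg7b) held a gene of the same name, 13 by symbol and the others by synonym. These were 22 distinct chicken genes, since ZNF184, ZNF23 and ZNF85 all matched a synonym of ZNF302, and no match by sequence was made.

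These probes were dim. In Cy3 their median signal was 1.84 times the local background, and in Cy5 it was 1.62 times, against 2.03 and 1.84 times over all gene probes. Brightness, the geometric mean of both dyes' signals, was below the limit set for testing (499.3, the dimmest 15% of all gene probes) for 44 of the 165 probes, or 26.7%, which left 121. In a fit without this limit the 44 dim probes spanned -0.23 to 0.13 at 0 hr, -0.14 to 0.15 at 24 hr and -0.20 to 0.06 at 48 hr, and 0 of them passed 1.2-fold with an unadjusted p under 0.05. The fit was limma over 1281 gene probes. Its p-values rest on the spread between replicates within time points, pooled over all 9 replicates and drawn toward that of all probes. A gene thus had the same standard error at each time point, whatever its SD there.

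Libraries differed in ways that touched these genes. Each replicate was hybridised in both dye orientations, with neomycin RNA in Cy3 or in Cy5 as the file headers name it. Over the 121 probes, pairs of arrays that shared both replicate and orientation correlated with a median r of 0.23 (96 pairs), while arrays of opposite orientations had a median of -0.06 after turning to neomycin over control (127 pairs, of which 20 were below -0.3). The direction given here is the one the headers name, and turning every sign would swap higher and lower and leave the counts as they are. Turning the orientations against each other would change the means, p-values and counts, and was not tried. Between the mean ratios in the 2 orientations r at 0, 24 and 48 hr was 0.05, -0.29 and -0.32 over the 121 probes, which share arrays and are not independent. Over all gene probes it was -0.12, -0.29 and -0.13, so the disagreement was not particular to this family. The sign was the same in both for 59 of 121 probes at 0 hr, 50 at 24 hr and 42 at 48 hr. There were 3 arrays, 2 of 0 hr replicate 3 and 1 of 48 hr replicate 3, with a brightness pattern unlike the others (r of 0.15 to 0.21, against a median of 0.78).

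**Figure D1:**
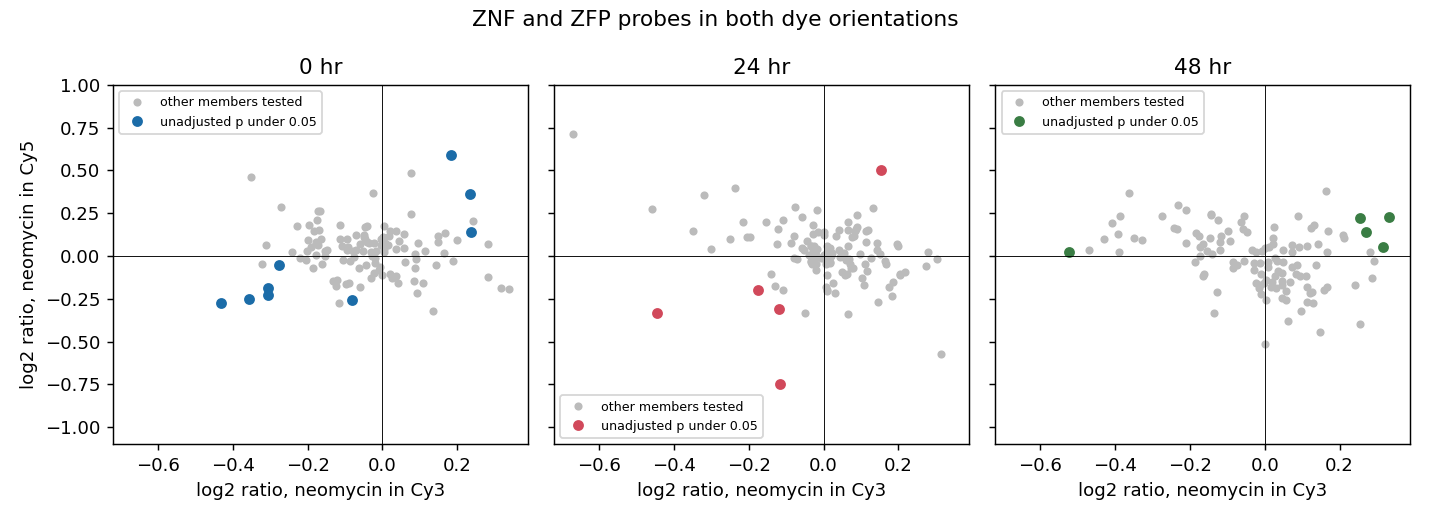
Mean log2 ratio (neomycin over control) of each of the 121 ZNF and ZFP probes tested, with neomycin RNA in Cy3 on the x axis and in Cy5 on the y axis, 1 panel per time point. Colored points have an unadjusted p under 0.05; probes toward the upper right and lower left corners had the same sign in both orientations, 59, 50 and 42 of 121 at 0, 24 and 48 hr.

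Cell type markers gave little hold on the makeup of the epithelia. Of the hair cell markers, 4 of 5 were on the array and 2, ATOH1 and BARHL1, were bright enough to test (POU4F3 and GFI1 were not), with mean ratios of -0.04 and 0.00 (0.0011) at 0 hr. Among supporting cell markers SOX2 and HEY1 were tested, at 0.13 ± 0.26 and -0.06 ± 0.10 (SD over 3 replicates). Of the 6 marker lists, only that of ganglion neurons and glia held a gene with an unadjusted p under 0.05, POU4F1 at 24 hr (0.34). Their part in the zinc finger ratios was not tested, and in such bulk samples fewer cells of a type cannot be told apart from less RNA per cell.

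As a group the zinc finger genes had ratios centered near 0. The medians of their ratios at 0, 24 and 48 hr were -0.01, 0.01 and -0.03, beside 0.00 (-0.0052), 0.00 (0.0041) and 0.01 over all 1281 probes. The middle portion of the 121 genes, from the lower to the upper quartile, ran from -0.06 to 0.05 at 0 hr, from -0.03 to 0.06 at 24 hr and from -0.08 to 0.04 at 48 hr. At 48 hr 48 of 121 (39.7%) had a ratio above 0, against 52.8% of all probes. The members' medians in the 3 replicates at 48 hr were -0.02, 0.00 (0.00029) and -0.04, and each orientation alone had a median slightly above 0 (0.0046 in Cy3 and 0.02 in Cy5), so its sign was not the same in all these values. In the 0 hr replicates the medians were 0.01, -0.01 and -0.00 (-0.0031), and in those of 24 hr -0.00 (-0.0022), -0.04 and 0.06. Without replicate 3 the 24 hr median was -0.01. The spread of a single gene was larger than any of these, with a median SD over the replicates of 0.11, 0.13 and 0.11 at the 3 time points.

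**Figure D2:**
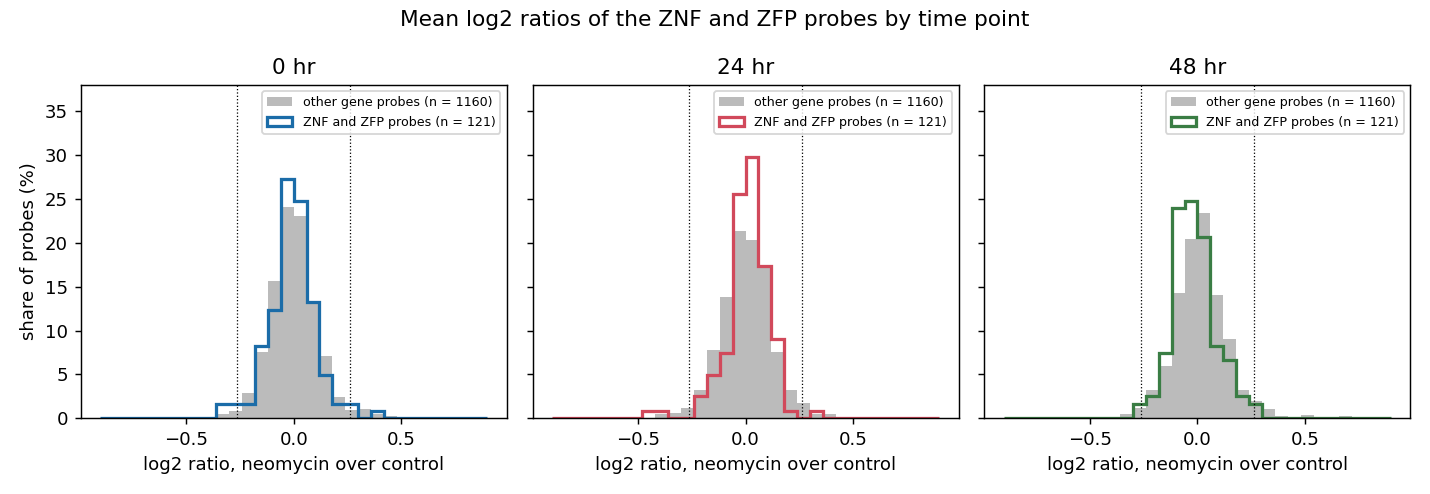
Share of probes (%, y axis) by mean log2 ratio of neomycin over control (x axis) at each time point, for the 121 ZNF and ZFP probes tested (line) and the 1160 other gene probes tested (grey). Dotted lines mark 1.2-fold; both sets center near 0, with zinc finger medians of -0.01, 0.01 and -0.03 at 0, 24 and 48 hr.

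At 0 hr, right after the antibiotic, 0 of the 121 zinc finger genes were called at an adjusted p under 0.05 in limma (0 of all 1281 probes, 0%). At an unadjusted p under 0.05 there were 9 (7.44%), against 6.4% of all probes, and 5 of them also passed 1.2-fold, against 3.12% of all probes. One sign in all 3 replicates and in both orientations was found for 12 genes above control and 15 below, beside 10.9% and 8.74% of all probes.

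Among KRAB genes at 0 hr, ZNF79 was the highest of the 121 in mean ratio. Its replicates stood at 0.68, 0.12 and 0.36, a mean of 0.39 ± 0.28 (SD), or 1.31-fold. It was above 0 in both orientations, at 0.18 in Cy3 and 0.59 in Cy5, and limma gave an unadjusted p of 0.0144 and an adjusted p of 0.609. ZNF84 was the lowest, with replicates at -0.11, -0.36 and -0.59 and a mean of -0.35 ± 0.24 (0.783-fold). All 3 of its replicates and both orientations (-0.43 and -0.28) were below 0, yet the adjusted p in limma was 0.367. Without the 2 unlike arrays of replicate 3 its ratio was -0.41.

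ZNF93, a KRAB protein that in primates silences LINE-1 retrotransposons, stood at 0.45, -0.08 and 0.51 at 0 hr. Replicate 2 was thus on the other side of 0 from the remaining 2, and the mean was 0.30 ± 0.32. ZNF45 was similar, at 0.19, -0.00047 and 0.37, with a mean of 0.19 ± 0.19. ZNF133, a KRAB repressor, was at -0.18, 0.0025 and -0.33, with a mean of -0.17 ± 0.17. In all 3 of these genes replicate 2 lay at or across 0 while replicates 1 and 3 shared a sign.

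A pair of BTB genes stood below control at 0 hr. ZNF278, also known as PATZ1, which combines a BTB domain with AT-hooks, had replicates at -0.14, -0.53 and -0.24 and a mean of -0.30 ± 0.20 (0.811-fold). It had the smallest p of the zinc finger genes at this time (unadjusted p 0.00368, adjusted p 0.363 in limma), and it was -0.36 and -0.25 in the 2 orientations. Its brightness was 506.6, just inside the limit for testing. ZNF288, the repressor ZBTB20, had replicates at -0.13, -0.20 and -0.47, a mean of -0.27 ± 0.18 (0.832-fold) and orientations at -0.31 and -0.23. Its adjusted p was 0.404 in limma. Of the other 5 listed and tested BTB genes ZNF145, the hematopoietic regulator PLZF, was at 0.04 ± 0.06, and ZNF151, the MYC partner MIZ1, at 0.05 ± 0.03.

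Among the other genes ZNF162 (SF1), which binds the branch point of introns, stood at -0.10, -0.23 and -0.41 at 0 hr. The mean was -0.25 ± 0.16 (0.842-fold, unadjusted p 0.0457, adjusted p 0.736 in limma). ZNF361, now named ZNF331 and a KRAB gene, was at -0.27, -0.14 and -0.08, with a mean of -0.17 ± 0.10. Both were below 0 in every replicate and in both orientations, although for ZNF361 the Cy5 orientation was close to 0 (-0.28 and -0.05).

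The next genes with one sign throughout at 0 hr, in order of p, had unadjusted p-values above 0.05. Above control these were ZNF15L1 (0.17), ZNF21 (0.15), ZNF12 (0.13), ZNF212 (0.16) and ZNF146 (0.09), and below control ZNF169 (-0.13). In ZNF21 and ZNF12 a single replicate carried the mean. ZNF21 stood at 0.07, 0.01 and 0.37, a mean of 0.04 without replicate 3, and ZNF12 at 0.03, 0.32 and 0.05, a mean of 0.04 without replicate 2. ZNF15L1 was 0.11 without replicate 3. ZNF146, or OZF, consists of zinc fingers alone, and its replicates were close together at 0.06, 0.06 and 0.15.

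**Figure D3:**
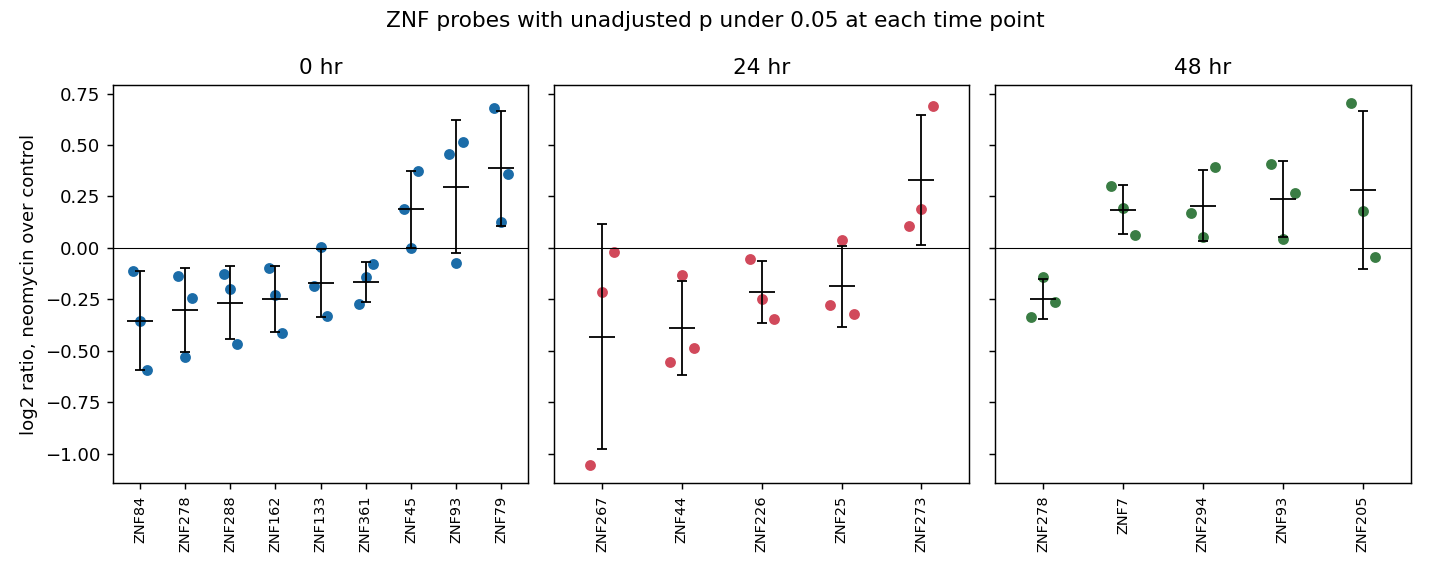
Log2 ratio of neomycin over control (y axis) in each biological replicate (points) for the zinc finger genes with an unadjusted p under 0.05 at 0, 24 and 48 hr, with the mean (bar) and SD (whiskers) of 3 replicates. Genes run from the lowest mean to the highest in each panel, from -0.35 (ZNF84) to 0.39 (ZNF79) at 0 hr; no gene passed an adjusted p of 0.05.

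At 24 hr of recovery limma again called 0 of the 121 genes (0% of all probes). With an unadjusted p under 0.05 there were 5 (4.13%, against 5.93% of all probes), and 3 also passed 1.2-fold (2.73% of all probes). All 5 were on the KRAB list, which held 53 of the 121 genes tested. One sign in all replicates and both orientations was found for 12 genes above control and 7 below, beside 10.4% and 9.21% of all probes.

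ZNF267 had the lowest mean ratio at 24 hr, but it rested on 1 replicate. Its replicates stood at -1.05, -0.22 and -0.02, a mean of -0.43 ± 0.55 (0.742-fold, adjusted p 0.797 in limma), and the orientations at -0.12 in Cy3 and -0.75 in Cy5. Without replicate 1 the mean was -0.12. ZNF44 was more even, with replicates at -0.56, -0.13 and -0.48, a mean of -0.39 ± 0.23 (0.763-fold) and orientations at -0.44 and -0.34. Its adjusted p was 0.797 as well. ZNF44 also had a signal well clear of background for this family, 7.87 times in Cy3.

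ZNF226 stood at -0.05, -0.25 and -0.35, a mean of -0.22 ± 0.15, and ZNF25 at -0.28, 0.04 and -0.32, a mean of -0.19 ± 0.19. The first was below 0 in all replicates and the second in 2 of 3. ZNF273 was the only gene of the 5 above control, at 0.11, 0.19 and 0.69, with a mean of 0.33 ± 0.32 (1.26-fold, unadjusted p 0.0253, adjusted p 0.797 in limma). It was 0.15 in Cy3 and 0.50 in Cy5, so its size, but not its sign, differed between orientations.

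The remaining genes with one sign at 24 hr that were named by the same rule had unadjusted p-values above 0.05. Above control they were ZNF187 (0.15), ZNF93 (0.21), ZNF23 (0.13), ZNF230 (0.13) and ZNF22 (0.11, but -0.045 without background correction), and below control ZNF14 (-0.15), ZNF205 (-0.19) and ZNF7 (-0.12). In 3 of these a single replicate carried the mean. Without replicate 3 ZNF230 was 0.05 (replicates 0.03, 0.07 and 0.29), ZNF22 was 0.04 (0.06, 0.03 and 0.25) and ZNF7 was -0.05 (-0.04, -0.05 and -0.28). The replicates of ZNF93 were the closest together of its 3 time points, at 0.26, 0.11 and 0.25. ZNF187, a SCAN gene, stood at 0.03, 0.27 and 0.16. Of the 6 genes past 1.2-fold at 0 hr, ZNF84 was at 0.02 ± 0.04 at 24 hr, ZNF278 at 0.03 ± 0.07, ZNF79 at 0.05 ± 0.08 and ZNF288 at -0.00 (-0.0043). The others, ZNF93 (0.21) and ZNF273 (0.33), were still above control. These genes were picked by their values at 0 hr, so a smaller ratio at 24 hr is no result about them.

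At 48 hr of recovery limma called 0 of the 121 genes (0% of all probes). The genes with an unadjusted p under 0.05 numbered 5 (4.13%, against 7.42% of all probes), and 1 of them, ZNF205, passed 1.2-fold (2.89% of all probes). One sign throughout was found for 11 genes above control and 5 below, beside 11.3% and 6.64% of all probes.

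ZNF205, a KRAB gene, stood at 0.70, 0.18 and -0.04, a mean of 0.28 ± 0.38 (1.21-fold, adjusted p 0.618 in limma). Replicate 1 was far above the other replicates, and the third was slightly below 0. ZNF7, also KRAB, had replicates at 0.30, 0.19 and 0.06 and a mean of 0.18 ± 0.12 (unadjusted p 0.0432, adjusted p 0.631 in limma). It was 0.32 with neomycin in Cy3 and 0.05 with neomycin in Cy5, and its brightness of 505.7 was close to the limit. ZNF93 stood at 0.41, 0.04 and 0.27 and ZNF273 at 0.34, 0.04 and 0.44, in both cases with replicate 2 close to 0.

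ZNF294, the ubiquitin ligase listerin that acts on stalled ribosomes, was at 0.17, 0.05 and 0.39 at 48 hr, a mean of 0.21 ± 0.17 (1.15-fold, unadjusted p 0.0274, adjusted p 0.597 in limma). It was the only gene with an unadjusted p under 0.05 at a single time point that had a same-named chicken gene, LTN1. ZNF278 was below control again, at -0.34, -0.14 and -0.26, with a mean of -0.25 ± 0.10. That value came from 1 orientation, since it was -0.52 with neomycin in Cy3 and 0.03 in Cy5. ZNF288 stood at 0.11, 0.14 and 0.21, a mean of 0.15 ± 0.05, but most of it came from 1 orientation (0.28 in Cy3 and 0.02 in Cy5). ZNF211 was at 0.29, 0.04 and 0.15, though with the deposited ratios its mean was -0.0031. Below control the genes with one sign throughout were ZNF259 (-0.13), ZNF31 (-0.11), ZNF16 (-0.10), ZNF133 (-0.08) and ZNF234 (-0.06, but 0.030 without background correction), all with unadjusted p-values of 0.10 or more.

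Time points were compared as differences of the coefficients, with each time point's ratio set against its own controls. In limma 0 of the 121 genes were called in any of the 3 differences (0% of all probes in each). With an unadjusted p under 0.05 were 4 genes for 24 against 0 hr (3.31%, beside 2.58% of all probes), 4 for 48 against 24 hr (3.31%, beside 3.59%) and 2 for 48 against 0 hr (1.65%, beside 2.73%).

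The clearest course by p was that of ZNF288. From -0.27 at 0 hr it went to -0.00 (-0.0043) at 24 hr and 0.15 at 48 hr, where it was 0.28 in Cy3 and 0.02 in Cy5. The difference of 48 against 0 hr was 0.42 ± 0.11 (standard error), with an unadjusted p of 0.00283 and an adjusted p of 0.998 in limma. ZNF7 took a course of -0.12 at both 0 and 24 hr to 0.18 at 48 hr, with differences of 0.31 from 24 hr and 0.30 from 0 hr. ZNF205 went from -0.19 at 24 hr to 0.28 at 48 hr, a difference of 0.47 ± 0.16 that was 0.26 without 48 hr replicate 1. The 2 lower genes with the smallest p in this difference were ZNF278 (-0.27, but 0.0037 without background correction) and ZNF187 (-0.23), and ZNF187 (-0.19) and ZNF45 (-0.24) were those of 48 against 0 hr.

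From 0 to 24 hr the differences of ZNF278 and ZNF84 were 0.33 ± 0.12 and 0.37 ± 0.14, with an adjusted p of 0.997 for both in limma. Both were picked by the smallest p in this same difference. ZNF267 (-0.48) and ZNF25 (-0.23) differed in the other direction, and in ZNF267 most of that came from 24 hr replicate 1.

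Averaging the 3 time points drew on 9 replicates per gene and gave the smallest standard errors, with a median of 0.05 against 0.08 for a single time point. Here too limma called 0 of the 121 genes, and it called 5 of all 1281 probes (0.39%). An unadjusted p under 0.05 was found for 13 zinc finger genes (10.7%, beside 12.2% of all probes), and 2 of these passed 1.2-fold (1.56% of all probes). None of the 121 genes had one sign in 9 of 9 replicates and both orientations, beside 1.8% of all probes above and 0.312% below control. Zinc finger genes under other spot names are not among the 121. Of 10 such probes that were listed and tested, 1 was called in this mean, so 1 of the 5 calls was a zinc finger gene. The 10 names came from the study's lists of changed genes, which rest in part on these same data. Of the 10, FLJ10697 (now ZNF532) had the smallest p at 0 hr (unadjusted p 0.000433 in limma). It was at 0.38, 0.18 and 0.20 at the 3 time points. The study lists it for the utricle after laser and the cochlea after neomycin, and not for these samples. All 10 names were picked for reported changes, so 1 call among them is no result about zinc finger genes.

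The 4 genes with the smallest p in this mean were singled out after their values were seen. ZNF273 had a mean of 0.29 ± 0.24 (SD over 9 replicates, 1.23-fold), and was above 0 in 8 of 9, from -0.05 to 0.69. Its adjusted p was 0.116 in limma (0.00224 to 0.533 over 26 alternatives), and its size differed by orientation, 0.13 in Cy3 against 0.46 in Cy5. ZNF93 was at 0.25 ± 0.20 (1.19-fold), also above 0 in 8 of 9 replicates. For ZNF93 the orientations were closer, at 0.21 and 0.29, and the adjusted p was 0.116 in limma (0.00224 to 0.492 over 27 alternatives). The single replicate below 0 was 0 hr replicate 2 for both genes. Without it both were called (adjusted p in limma 0.0342 for ZNF273 and 0.0168 for ZNF93), together with ZNF274, a gene with both a KRAB and a SCAN domain. Since genes and replicate are singled out by their values, these calls are no support for a difference, and 0 genes were called without any 1 of the other 8 replicates. With the replicate number as a block in the fit, ZNF273 and ZNF93 were also called (adjusted p in limma 0.0373 and 0.0417). Same-numbered replicates did not deviate together, and the share of all probes called in that fit is not given. These calls of genes singled out by their values are thus no support either.

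ZNF44 was at -0.27 ± 0.29 (0.828-fold), below 0 in 8 of 9 replicates and in both orientations (-0.23 and -0.31). Its exception was 48 hr replicate 1 at 0.26, and its adjusted p was 0.156 in limma (0.00951 to 0.56 over 27 alternatives). ZNF278 was at -0.18 ± 0.19 (0.886-fold), with 7 of 9 replicates below 0 and the 2 above it both at 24 hr. It was -0.27 in Cy3 and -0.08 in Cy5, with an adjusted p of 0.125 in limma (0.0356 to 0.774 over 25 alternatives). The lowest of these adjusted p-values came, for all 4 genes, from the fit that counted each array, with the day as a random block.

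**Figure D4:**
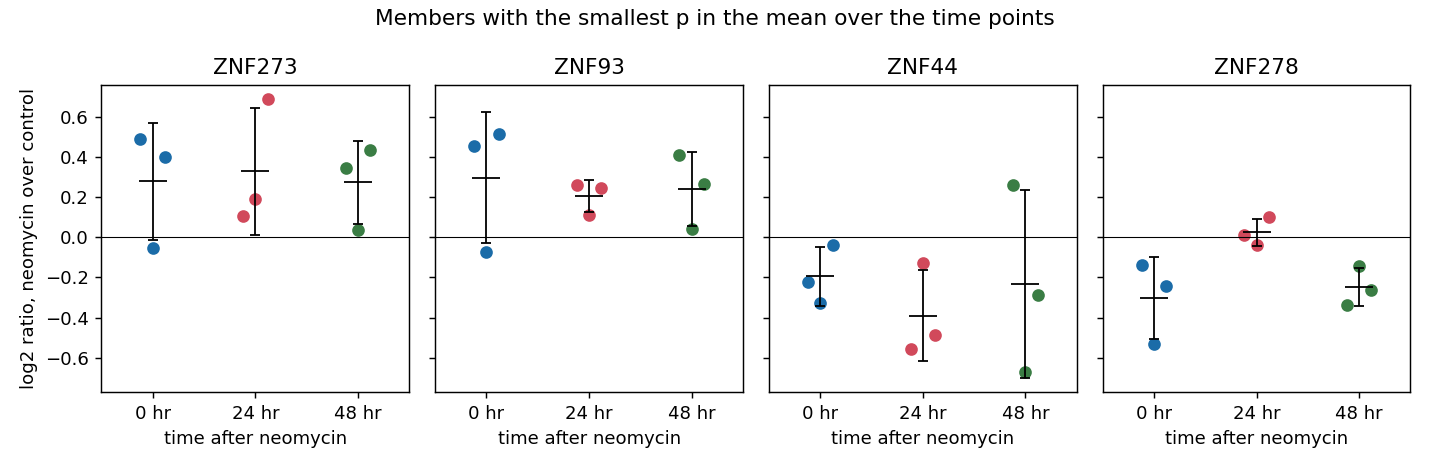
Log2 ratio of neomycin over control (y axis) by time point (x axis) for ZNF273, ZNF93, ZNF44 and ZNF278, with each biological replicate as a point and the mean and SD of 3 replicates as bar and whiskers. ZNF273 and ZNF93 were above 0 in 8 of 9 replicates and ZNF44 was below 0 in 8 of 9, while ZNF278 was below 0 at 0 and 48 hr and near 0 at 24 hr.

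The domain groups had medians near that of the array as a whole. Of 53 KRAB genes tested, those with an unadjusted p under 0.05 were 3 above and 2 below control at 0 hr, beside 3.83% and 2.58% of all probes. At 24 hr there were 1 above and 4 below (2.97% of all probes in each direction), and at 48 hr 3 above and 0 below (5.07% and 2.34%). The KRAB medians were 0.01, 0.00 (0.0041) and 0.00 (0.00024). The KRAB genes also held the ends of the family's range at each time point. Of 11 SCAN genes 0 had an unadjusted p under 0.05 at any time point, and 8 of 11 lay above 0 at 24 hr and 2 of 11 at 48 hr, with medians of 0.06 and -0.05. The zinc finger genes as a whole had the same order, with 57.9% above 0 at 24 hr and 39.7% at 48 hr, beside 52.0% and 52.8% of all probes. The KRAB genes did not have it, with 27 of 53 above 0 at both times. Of the 29 tested genes on no list, 20 lay above 0 at 24 hr and 7 at 48 hr. The 7 listed and tested BTB genes had medians of -0.03, -0.01 and -0.04, with 2 below control at 0 hr and 1 at 48 hr by unadjusted p (ZNF278 and ZNF288, then ZNF278 alone). ZNF-kaiso, which the list missed, was at -0.08, -0.05 and -0.06.

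The 3 MYM-type genes tested, ZNF237, ZNF258 and ZNF262, ranged from -0.12 to 0.01 over the time points, and 0 of 3 had an unadjusted p under 0.05. Among the 10 proteins that are not C2H2 factors, ZNF162 at 0 hr and ZNF294 at 48 hr were the 2 with an unadjusted p under 0.05. ZFP36 was at 0.05, 0.11 and -0.03 at the 3 time points and ZNF9 (CNBP) at 0.07, 0.01 and -0.04, each within its own SD except ZFP36 at 24 hr. Of 11 genes listed as other C2H2 factors, ZNF259 included, 0 had an unadjusted p under 0.05 at any time point. ZNF143, an activator of small nuclear RNA genes, was at -0.05, -0.02 and -0.11 at 0, 24 and 48 hr, and ZNF207, which acts at the mitotic spindle, at 0.08, 0.03 and 0.02.

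The corepressors and chromatin proteins that zinc finger proteins recruit were examined from a list of 24 names, of which 15 were on the array and 12 bright enough. By unadjusted p, 0 of the 12 passed 0.05 at any time point. With 6.4%, 5.93% and 7.42% of all probes passing at 0, 24 and 48 hr, a count of 0 in this list or in a domain group of similar size is near the background and no result about it. Their medians were 0.00 (0.0019), 0.05 and 0.01. TRIM28, the KRAB corepressor, was at -0.07 ± 0.13, -0.00 (-0.0037) ± 0.10 and -0.09 ± 0.03, and SETDB1, the histone methyltransferase it recruits, at 0.05 ± 0.18, 0.03 ± 0.22 and 0.08 ± 0.10.

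Zinc finger names that the study discusses were looked up as a fixed set of 11. Of these, 7 were tested as spots of that name and ZFP106 and ZNF175 were too dim. The study's annotation gives ZNF324 and ZNF248 as the current names of the spots ZF5128 and LOC57209, which are not among the 165. LOC57209 (ZNF248) was at 0.45, 0.29 and 0.15 at the 3 time points, and ZF5128 (ZNF324) at -0.08, 0.12 and 0.13. The same annotation puts the ZNF44 that the study discusses on the spot GIOT-2, a probe apart from the spot named ZNF44 described here. GIOT-2 was at -0.04, -0.39 and -0.26, beside -0.19, -0.39 and -0.23 for the spot ZNF44. Besides ZNF93 and ZNF79, ZNF90 was at 0.22 ± 0.43, 0.17 ± 0.20 and 0.17 ± 0.17, with 0 hr replicate 3 at 0.71 and the other 2 replicates of that time just below 0. ZNF75A lay between -0.06 and 0.10, ZNF123 between -0.12 and 0.07 and ZNF258 between 0.00 (0.00071) and 0.01, all within 1.2-fold. The study's filtered list for the utricle after neomycin does not hold these 3 genes either. It does hold ZNF93, ZNF90 and ZNF79 as above control at 0 hr, the direction of their means here. The list also has ZNF79 above control at 48 hr and ZNF281 at 0 hr, where the means here were 0.07 and -0.01. Its other zinc finger genes were not compared here.

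ZNF10, a KRAB repressor, was singled out after its values were seen, as the gene with the widest gap between orientations. With neomycin in Cy3 it was -0.35, -0.67 and -0.36 at the 3 time points, and with neomycin in Cy5 it was 0.46, 0.72 and 0.37. Its replicate means, which average both orientations, stayed between -0.27 and 0.44. Each orientation alone would put this gene past 1.2-fold in opposite directions. The study's filtered list for the utricle after neomycin holds ZNF10 as above control at 0 hr, where its mean here was 0.06.

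The 37 genes named by rule are drawn by replicate in the heatmap. ZNF273 and ZNF93, at the top, were above control in 8 of 9 replicates, and ZNF44, at the bottom, was below in 8 of 9. ZNF267, next to it, was below in 7 of 9, and 2 of its 3 replicates at 0 hr were above control. Over all 121 genes 6 were above 0 in 8 of 9 replicates and 5 in 1 of 9, and most lay in between, with 54 genes above 0 in 4 or 5 replicates.

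**Figure D5:**
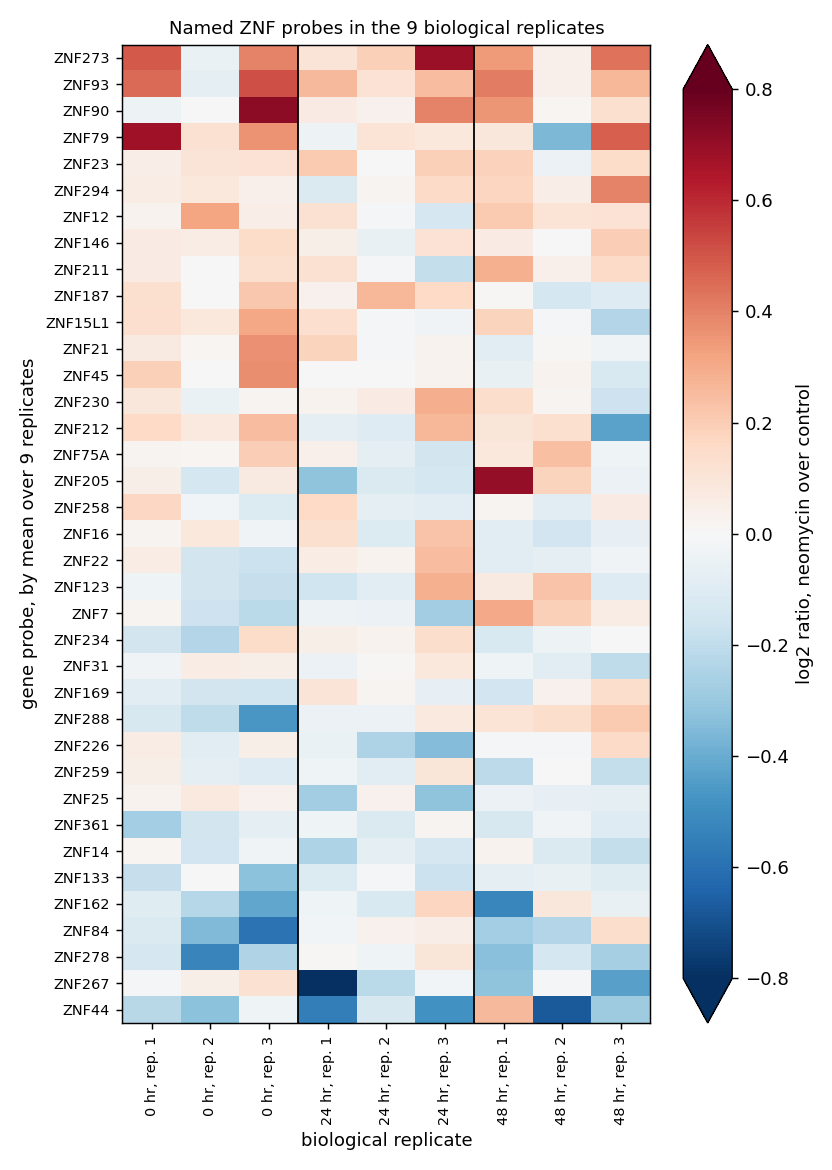
Log2 ratio of neomycin over control (color; values past 0.8 in size share the end color) of the 37 named zinc finger genes (vertical axis, by mean over 9 replicates) in each biological replicate (horizontal axis, by time point). ZNF273 is highest with a mean of 0.29 and ZNF44 lowest at -0.27, and no gene keeps one color in all 9 columns.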

How the data were processed

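The authors deposited 1 image quantification file per dye for each of the 65 arrays, with the mean intensity of every spot and of its local background, written by ImaGene 4.1 per the file headers and not normalized. A deposited series matrix of log2 ratios equalled the log2 ratios of these raw signals, and was used as an alternative. Each array holds 3072 spots, with every probe as a pair. In limma 3.58.1 (R 4.3.3) signals were background-corrected (normexp, offset 50) and normalized within arrays by loess. Each ratio was given as neomycin over control from the dye in the headers, which equalled the title digit on 65 of 65 arrays, and averaged over spots, arrays and both orientations into 9 replicate values (4 to 11 arrays each). The dimmest 15% of probes were removed, and each time point, their mean and their differences were tested with moderated tests, Benjamini-Hochberg adjusted over 1281 probes. The methods asked for 1.2-fold and p under 0.05, so these counts are given too. The number of biological replicates, 3 per time point, limits the precision, and no depth applies. The script was tested on simulated data.

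Domain groups came from general knowledge of the human proteins. The members and lists were chosen with earlier results of these data known. Named genes were, at each time point, up to 6 in each direction with the smallest p among those with one sign in all replicates and both orientations, the 2 higher and 2 lower with the smallest p in each difference, and names the study discusses. Alternatives covered background correction, normalization, the brightness limit, dye orientation, averaging, arrays left out, the test, the day and replicate blocks, and each replicate left out. Arrays fell on 15 quantification days; 3 days held more than 1 time point, each with a single replicate number, so no value within a day could be tested. No sequence is shown, as none was used here.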

Additional observations from a re-analysis of the deposited data

How the results depend on the processing

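Dim probes and the opposing dye orientations limited these data, and members are known only by old human names. Under most alternatives 0 zinc finger genes were called, as in limma on the replicates. Replicate numbers were shared between time points, but same-numbered replicates did not deviate together (2 of 9 pairs above 0.1, from -0.11 to 0.19), and no pairing was taken from the numbers, though on 3 quantification days same-numbered replicates of different time points shared a day; with the replicate block 2 genes were called in the 3-time mean (ZNF273 and ZNF93) and 2 passed 1.2-fold and p under 0.05 at 48 hr. In the mean 4 genes were called by the methods' t-test over all hybridisations (ZNF273, ZNF44, ZNF90 and ZNF93), and 5 in limma over all arrays with the replicate as a random block (these 4 and ZNF278) and 5 with the day as a random block. These fits also called 1 gene (ZNF84, replicate) and 2 genes (ZNF84 and ZNF288, day) at 0 hr, and 3 and 4 by the F test. They count each array as a measurement, and the cause of the added calls was not tested. With replicates left out in turn, 0 to 3 were called in the mean, 3 of them without 0 hr replicate 2. The shares of all probes called under these alternatives are not set beside these counts, so the counts are no result about the zinc finger genes.

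The number past 1.2-fold and p under 0.05 was 5 at 0 hr, 3 at 24 hr, 1 at 48 hr and 2 in the mean. At 0 hr it was 1 without background correction, 3 with plain subtraction, 2 at a brightness of at least 800, 2 with the deposited ratios, 3 with neomycin in Cy3 only, 0 by the methods' t-test over replicates, and 2 (without replicate 3) to 9 (without replicate 2) with replicates left out. At 24 hr it was 5 with plain subtraction, 1 with scale normalization, 1 at a brightness of at least 800, 5 with neomycin in Cy5 only, 0 by that t-test, and 1 (without replicate 3) to 5 (without replicate 2). At 48 hr it was 14 with plain subtraction, 2 with median centring, 2 with scale normalization, 0 with the deposited ratios, 4 in either orientation alone, 3 with a plain mean over arrays, 2 without the 3 unlike arrays, 0 by that t-test, 2 in each fit over all arrays, and 1 to 7 with replicates left out, where 7 came without 48 hr replicate 2, 4 without 48 hr replicate 3, and 2 without 48 hr replicate 1, 0 hr replicate 2 or 24 hr replicate 3. In the mean it was 0 without background correction, 12 with plain subtraction, 5 with neomycin in Cy5 only, 1 with median centring, at a brightness of at least 800, with the deposited ratios, with a plain mean over arrays, by the t-test over hybridisations and in both fits over all arrays, and 1 to 3 with replicates left out, where 1 came without 0 hr replicate 1, 24 hr replicate 1 or 24 hr replicate 3. Here too the shares of all probes are not given, so the counts show how far the processing matters and are no result about this family. The cause of these shifts was not tested.

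The median at 0 hr (-0.01) was 0.0097 without background correction, 0.033 with plain subtraction, -0.029 with median centring, -0.032 with no limit on brightness, 0.0046 at a brightness of at least 800, 0.0083 with the deposited ratios, -0.042 with neomycin in Cy3 only and 0.033 in Cy5 only. At 24 hr (0.01) its sign turned without background correction (-0.016), with median centring (-0.011), scale normalization (-0.0016) and the deposited ratios (-0.011), and without 24 hr replicate 3 (-0.013). At 48 hr (-0.03) it was -0.055 with plain subtraction, 0.0046 in Cy3 only and 0.023 in Cy5 only.

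Signs turned in genes near 0. ZNF258 turned at 0 hr with median centring (-0.090), loess within subgrids (-0.014), scale normalization (-0.013), Cy5 only (-0.036), the t-test over hybridisations (-0.033) and the fits over all arrays with the replicate (-0.034) or day (-0.036) as block. It turned at 24 hr without background correction (-0.047), with median centring (-0.031), scale normalization (-0.0027), Cy5 only (-0.072), a plain mean (-0.0036), that t-test (-0.0027) and the same fits (-0.0036 and -0.0051), and at 48 hr without background correction (-0.040), with median centring (-0.012), Cy3 only (-0.023), a plain mean (-0.017), without the unlike arrays (-0.023), by that t-test (-0.024) and in the same fits (-0.025 and -0.025). ZNF123 turned at 24 hr without background correction (-0.046), with plain subtraction (-0.32), median centring (-0.038), scale normalization (-0.058), the deposited ratios (-0.053), that t-test (-0.015) and the same fits (-0.011 and -0.0082), at 48 hr with plain subtraction (-0.0045) and at 0 hr in Cy5 only (0.066). ZNF79 turned at 24 hr with plain subtraction (-0.12), median centring (-0.053), the deposited ratios (-0.026) and Cy3 only (-0.028), and at 48 hr with the deposited ratios (-0.093). Without background correction ZNF22 at 24 hr was -0.045, ZNF234 at 48 hr 0.030 and ZNF278 for 48 against 24 hr 0.0037. With the deposited ratios ZNF278 for 48 against 24 hr was 0.0051, ZNF211 at 48 hr -0.0031 and ZNF234 at 48 hr 0.0090. ZNF278 for 48 against 24 hr was 0.045 in Cy5 only, ZNF75A was 0.15 at 24 hr in Cy3 only and -0.12 at 0 hr in Cy5 only, and ZNF90 at 48 hr was -0.017 with plain subtraction. With replicates left out ZNF258 ranged from -0.067 to 0.074 at 0 hr, -0.080 to 0.046 at 24 hr and -0.031 to 0.043 at 48 hr, ZNF90 from -0.022 to 0.36 at 0 hr, ZNF123 from -0.12 to 0.097 at 24 hr and -0.016 to 0.15 at 48 hr, and ZNF79 from -0.14 to 0.28 at 48 hr. The cause of these turns was not tested.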
